A study of Mus musculus with 8 samples.

Results

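RNA of single muscle fibers was compared between mature mice and pups by setting a pool of 4 mature arrays against a pool of 4 pup arrays. The fibers came from the extensor digitorum longus (EDL), a hind-leg muscle of fast fibers. The pools took in 8 of the 8 arrays of the series. All mice were labelled wild-type. The pup pool held 2 biological replicates at postnatal day 3 (P3) and 2 at postnatal day 7 (P7), and the mature pool held 2 from adult mice of 3 to 4 months (Adult) and 2 from aged mice of 24 to 25 months (Aged). The labels give no strain and no sex. They describe each pup sample both as from a pup and as from pups, so the labels do not settle whether animals were pooled. Fibers were freed by collagenase digestion and washed free of loose cells before lysis, and a small amount of RNA was labelled with biotin and measured on Affymetrix mouse arrays. Each pool holds 2 ages, so the spread within a pool also holds any change between those ages.

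Skeletal muscle fibers are long cells with many nuclei that form before birth by fusion of precursor cells. After birth they still gain nuclei and length, exchange embryonic and neonatal isoforms of contractile proteins for those of mature muscle, and settle their contact with the motor nerve. In the mature mouse the EDL is made almost wholly of fast fibers, which shorten quickly and draw much of their energy from glycogen and glucose.

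Values are log2 intensities, and every difference is mature minus pup on that scale, with its standard error from a fit of limma to 4 arrays against 4. A gene was called changed when its Benjamini-Hochberg adjusted p, over the 12029 genes tested, was under 0.05. Called were 1980 genes (16.5% of those tested), of which 799 (6.64%) were higher and 1181 (9.82%) were lower in mature fibers. These shares of all genes are the background for the counts of list members below. At an unadjusted p under 0.05 the count was 3749. In 735 of the higher and 1085 of the lower calls the mature and pup arrays did not overlap, and over all genes tested 9.38% had every mature array above every pup array and 13% had every mature array below. Among the called genes, 152 were lower by at least 2 log2 units and 70 were higher by as much, and 22 were lower and 1 was higher by at least 4. The median difference over all genes was -0.01. With arrays scaled to equal housekeeping means, which moved the median of all genes by 0.125, the split was 1273 higher and 834 lower, so that 60.4% of calls were higher in place of 40.4%.

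Adult replicate 1 stood apart from the other arrays. Its correlation with the other mature arrays over all probe sets was 0.938 to 0.953, against 0.984 and 0.985 between Adult replicate 2 and the Aged arrays. With the pup arrays the gap was small, at 0.933 to 0.950 for Adult replicate 1 and 0.942 to 0.961 for Adult replicate 2. The mean levels of markers of several cell types that lie between fibers were highest on this array. Not every member followed its mean. Col1a1, Col1a2, Col3a1 and Mcam were highest on a P7 array and Cspg4 and Des on a P3 array. The endothelial marker Cldn5 read 8.86 on Adult replicate 1, against 9.44 to 9.82 on the other mature arrays. The 11 fibroblast markers tested averaged 10.79 there, against 8.21 to 9.61 on the pup arrays and 7.19 to 7.67 on the other mature arrays. Endothelial markers (12 genes) averaged 10.55, against 8.49 to 9.24 on the pup arrays and 7.90 to 8.77 on the other mature arrays, and smooth muscle and pericyte markers (10 genes) also averaged 10.55, against 8.67 to 9.32 and 7.92 to 8.44. The 14 satellite cell markers averaged 8.38 there, 8.12 to 8.31 in pups and 7.04 to 7.23 on the other mature arrays, but these markers differed among themselves. Cd34 read 11.91 and Notch3 9.02 on Adult replicate 1, against 7.46 to 8.66 and 6.47 to 6.73 on the other mature arrays. Pax7 (6.93 against 6.24 to 6.80) and Myf5 (6.61 against 5.44 to 6.46) lay nearer to them, and Cdh15 had its lowest value there, at 7.64. Myofiber markers (10 genes) lay between 13.23 and 13.62 in pups and between 13.46 and 13.63 in mature fibers, and 0 of the 10 were called. Of the leukocyte markers, 3 of 13 passed the filter and 0 were called, and Ptprc, Adgre1, Cd14, Fcgr1, C1qa and Cd79a lay below the array median on every array. Cd68, a lysosomal protein of macrophages, read 8.17 to 9.53 in pups, 8.39 on Adult replicate 1 and 11.12 to 11.77 on the other mature arrays (1.54 ± 0.66, not called), and Mrc1 was at -1.18 ± 0.46. Of the adipocyte markers, 2 of 8 passed and 0 were called, with Fabp4 at 11.59 on Adult replicate 1 and 8.57 to 9.66 elsewhere, while Adipoq, Cidec and Lep lay below the median on every array. Without Adult replicate 1 the calls numbered 1690 higher and 2055 lower. Leaving out P3 replicate 1 (489) or P3 replicate 2 (516), Adult replicate 2 (488), Aged replicate 1 (455) or Aged replicate 2 (434) lowered the count of higher genes, and leaving out P7 replicate 2 (758), Adult replicate 2 (752), Aged replicate 1 (738) or Aged replicate 2 (682) lowered the count of lower genes by over 1.5 times. In bulk RNA fewer cells of a type and less RNA per cell cannot be told apart.

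**Figure D1:**
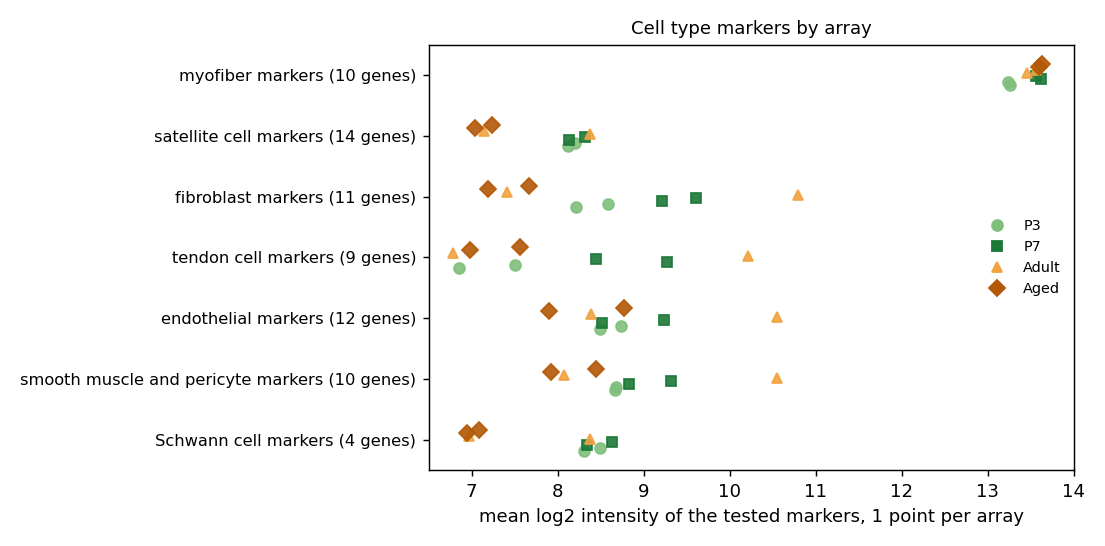
Mean log2 intensity of the tested markers of 7 cell types (horizontal axis) on each array, with 1 point per array and the ages marked by shape and colour. Myofiber markers lie between 13.23 and 13.63 on every array, while Adult replicate 1 holds the highest mean of the fibroblast, tendon, endothelial and smooth muscle markers.

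The largest falls were in genes of fetal growth, the neonatal sarcomere and the X chromosome. Dlk1, an imprinted surface protein of the Delta family, fell by 6.09 ± 0.18 on the log2 scale (68.0-fold, adjusted p = 3.48e-07). It read 12.92 and 13.09 at P3, 12.73 and 13.16 at P7, 7.20 and 6.73 in Adult and 6.74 and 6.89 in Aged. All pup arrays thus lay far above all mature arrays, with little spread inside either pool. Kcne1l, an accessory subunit of potassium channels, fell by 5.97 ± 0.21 (62.8-fold, adjusted p = 8.37e-07), from 11.27 to 11.93 on the pup arrays to 5.28 to 5.81 on the mature arrays. Atp1b4, a muscle protein of the sodium pump beta subunit family, fell by 5.66 ± 0.24, Fndc3c1, a protein with fibronectin type III repeats, by 5.63 ± 0.27 and Nrk, a protein kinase, by 5.49 ± 0.39. The mature values of Fndc3c1 (4.10 to 5.37) and Nrk (4.10 to 4.94) lay below the array medians of 6.02 to 6.17, and the pup values above them. Capn6, a calpain without protease activity, fell by 4.99 ± 0.36, Tecrl, an enoyl-CoA reductase-like protein, by 4.81 ± 0.31, and Prr32, a proline-rich protein, by 4.43 ± 0.56. Sox11, a transcription factor of developing tissues, read 10.42 and 9.75 at P3, 8.26 and 8.95 at P7 and 4.44 to 5.50 on the mature arrays, and fell by 4.19 ± 0.44. The other genes of the 15 largest falls are described with their groups below. AW551984, which carries only a clone name, was lower by 6.53 ± 0.42 and was left out of the ranking for that reason.

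Rises were smaller than falls. Aldh1a1, a retinaldehyde dehydrogenase and the only gene called higher by at least 4 log2 units, rose by 4.77 ± 0.43 (27.2-fold, adjusted p = 1.40e-04). It read 5.35 and 4.95 at P3, 6.79 and 6.47 at P7, 10.25 and 10.17 in Adult and 10.99 and 11.20 in Aged. Levels followed the order of the ages, and no array of 1 age overlapped another age. Ces1d, a carboxylesterase that acts on retinyl esters and neutral lipids, rose by 3.75 ± 0.32 (13.4-fold), from 4.05 to 4.76 on the pup arrays to 7.61 and 7.53 in Adult and 8.72 and 8.84 in Aged. Cbr2, a carbonyl reductase, rose by 3.64 ± 0.44, and Sqor, the mitochondrial enzyme that oxidises sulfide, by 3.47 ± 0.27. Cd55, which shields cells from complement, rose by 3.04 ± 0.21 (8.25-fold), with all mature arrays between 8.76 and 8.93. Lrrc30, a leucine-rich repeat protein, rose by 2.92 ± 0.18 (adjusted p = 2.03e-05), and Cntfr, the binding subunit of the receptor for ciliary neurotrophic factor, by 2.83 ± 0.30.

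Several of the large rises differed in size between the mature ages or arrays. Mmp3, a matrix metalloproteinase, rose by 3.12 ± 0.63, and it was higher than in pups by 1.83 in Adult and 4.40 in Aged. Amy1, an amylase, rose by 2.85 ± 0.33, with Adult at 7.15 and 7.28 and Aged at 8.55 and 8.52. Fgfbp1, which binds fibroblast growth factors, rose by 3.23 ± 0.79 (adjusted p = 0.0226), but it read 5.09 on Adult replicate 1 against 8.28 to 9.39 on the other mature arrays. It lost its call without any 1 of the other 7 arrays (adjusted p 0.051 to 0.0641). Tspan8, a tetraspanin, rose by 3.40 ± 0.32, Abcb4, a phospholipid transporter, by 3.09 ± 0.33, and the membrane protein Tmem140 by 3.20 ± 0.46. Ankrd1, a stress-responsive ankyrin repeat protein of muscle, rose by 3.11 ± 0.50.

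**Figure D2:**
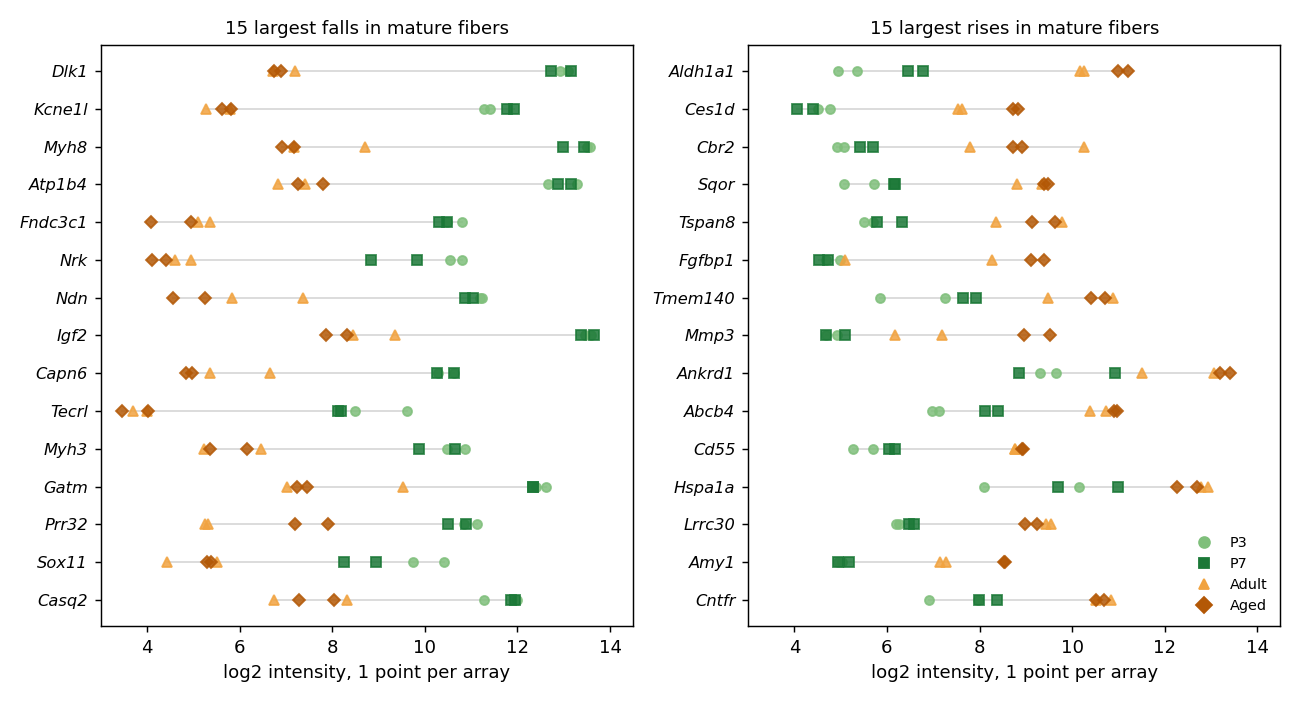
Log2 intensity (horizontal axis) of the 15 genes with the largest fall (left) and the 15 with the largest rise (right) among named genes whose mature and pup arrays did not overlap, with 1 point per array and the ages marked by shape and colour. Dlk1 drops from about 13 to 7, while Aldh1a1 climbs from 4.95 to 6.79 in pups to 10.17 to 11.20 in mature fibers, and Fgfbp1 on Adult replicate 1 lies beside the pup arrays.

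Imprinted growth genes, which are read from 1 parental copy and are known to set fetal growth, were the list with the largest median fall. Of 23 genes listed, 20 passed the filter on low values, 16 were called lower and 1 higher, and the median difference was -2.63. A member above the array median only in pups could pass and then had to be lower, so this count is a description. Their mean level lay between 10.17 and 10.25 on the pup arrays and between 7.51 and 7.84 on the mature arrays. Igf2, a fetal growth factor of the insulin family, fell by 5.03 ± 0.28 (32.6-fold, adjusted p = 1.14e-05), from 13.46 and 13.59 at P3 and 13.37 and 13.66 at P7 to 9.35 and 8.44 in Adult and 7.87 and 8.31 in Aged. Its highest mature value was on Adult replicate 1. Ndn, the growth-restraining protein necdin, fell by 5.33 ± 0.50 and read 7.38 on Adult replicate 1 against 4.56 to 5.84 on the other mature arrays. Meg3, a long non-coding RNA, fell by 4.14 ± 0.22 and Grb10, an adaptor that restrains insulin and growth factor receptors, by 2.42 ± 0.17. Mest (-4.03 ± 0.37), Zdbf2 (-3.96 ± 0.35), Rian (-3.81 ± 0.33), Cdkn1c, an inhibitor of cyclin-dependent kinases (-3.29 ± 0.30), Plagl1 (-2.94 ± 0.33) and Zim1 (-2.85 ± 0.29) were also lower. Phlda2 was at -0.06 ± 0.15 and was not called. The member called higher was Impact, at 1.22 ± 0.35, whose arrays overlapped and which lost its call without any 1 of the other 7 arrays than Adult replicate 1. Of the 16 lower calls, 15 held in each of the 8 fits that left out 1 array, and 17 members were called lower without Adult replicate 1.

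Dlk1 and Meg3 lie in 1 imprinted domain of chromosome 12 that also holds a large cluster of microRNA genes, short RNAs that pair with messenger RNAs through their seed. The domain's microRNA genes were examined after the fall of Dlk1, Meg3 and Rian had been seen. Of 61 microRNA genes placed between Dlk1 and Dio3 by RefSeq, 40 were on the array, 26 passed the filter, 23 were called lower and 0 higher, and the median difference was -2.15. Elsewhere in the genome 69 microRNA genes passed, of which 2 were lower (Mir181b-1 and Mir19b-1) and 2 higher (Mir212 and Mir219a-1), and 7 were lower without Adult replicate 1. A gene above the array median only in pups could pass the filter and then had to be lower in mature fibers, so the count is a description. These probe sets measure RNA that holds the hairpin and not the mature microRNA. The mature sequences of the 6 genes with the largest falls are given so that their seeds can be compared, in 5′ to 3′ direction with the seed (bases 2 to 8) in capitals, from RefSeq on GRCm38.p6.
mmu-miR-382-3p: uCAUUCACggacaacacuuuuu
mmu-miR-382-5p: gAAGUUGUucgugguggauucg
mmu-miR-485-3p: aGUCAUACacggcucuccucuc
mmu-miR-134-5p: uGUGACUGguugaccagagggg
mmu-miR-134-3p: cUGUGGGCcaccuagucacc
mmu-miR-377-3p: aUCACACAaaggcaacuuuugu
mmu-miR-377-5p: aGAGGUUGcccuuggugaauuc
mmu-miR-539-5p: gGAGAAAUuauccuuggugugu
mmu-miR-323-3p: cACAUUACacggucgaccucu
mmu-miR-323-5p: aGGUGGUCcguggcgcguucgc
No 2 of the 49 mature sequences known for the 26 genes shared a seed. All lie on the plus strand, for example mmu-miR-134-5p at chr12:109734145-109734166 and mmu-miR-382-3p at chr12:109733819-109733840.

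Mir382 had the largest fall of the domain's microRNA genes, by 4.70 ± 0.40 (adjusted p = 1.09e-04). It read 8.62 and 7.77 at P3, 10.05 and 8.60 at P7, 4.25 and 4.10 in Adult and 3.76 and 4.12 in Aged. Mir485 was at -3.60 ± 0.21, Mir134 at -3.59 ± 0.25, Mir377 at -3.44 ± 0.43, Mir539 at -3.36 ± 0.44 and Mir323 at -3.32 ± 0.29. P7 replicate 1 was the highest array for each of these 6 genes. Mir134 stayed the brightest of the 6 probe sets in mature fibers at 6.64 to 6.93, which is a property of the probe set and not an order of RNA levels. The domain's 3 genes that were tested and not called were Mir666 (0.01 ± 0.20), Mir667 (-0.61 ± 0.22) and Mir409 (-0.80 ± 0.26). The mean over the 26 genes was 7.11 to 8.10 on the pup arrays and 5.30 to 5.50 on the mature arrays, of which Adult replicate 1 was the highest. For Mir329 (5.48 against 5.08 to 5.13) and Mir127 (6.44 against 5.73 to 5.82) this array lay far above the other mature arrays. Of the 23 lower calls, 18 held in each fit that left out 1 array, and 24 genes were called lower without Adult replicate 1. Of 6 tested genes on a list of microRNAs studied in muscle, 5 were called lower (Mir329, Mir541, Mir411, Mir127 and Mir431), and these 5 belong to the same domain. Without Aged replicate 2 this list had 3 calls.

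**Figure D3:**
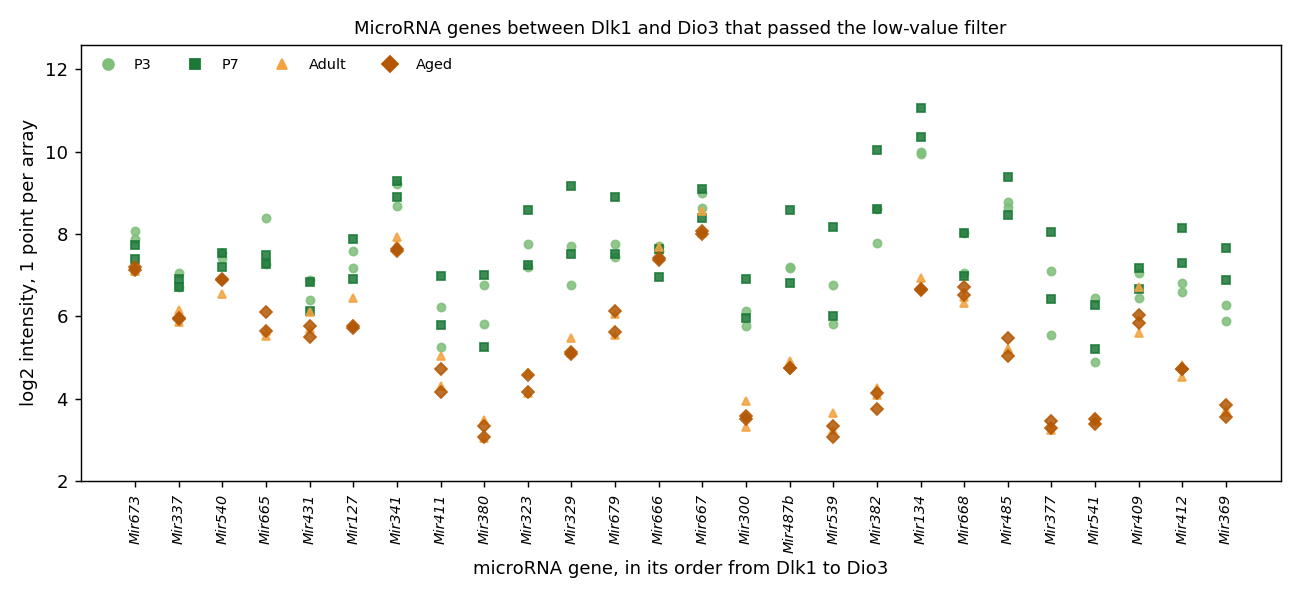
Log2 intensity (vertical axis) of the 26 tested microRNA genes between Dlk1 and Dio3, in their order along the chromosome, with 1 point per array and the ages marked by shape and colour. For 23 genes the mature arrays lie below the pup arrays, while Mir666, Mir667 and Mir409 overlap.

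Of the 15 largest falls, 6 were X-linked (Kcne1l, Atp1b4, Fndc3c1, Nrk, Capn6 and Prr32), against 0 of the 15 largest rises. Genes of the X chromosome were therefore counted after these values had been seen. Of 356 X-linked genes tested, 69 (19.4%) were lower and 24 (6.74%) higher, and of 11665 genes on the other chromosomes 1112 (9.53%) were lower and 774 (6.64%) higher. The 69 include the 6 falls that led to the count. Genes above the array median only in pups, such as Fndc3c1 and Nrk, could pass the filter and then had to be lower, so these counts are a description. Among the X-linked genes that were lower were Maged2 (-4.08), the pyruvate dehydrogenase kinase Pdk3 (-3.66), Igsf1 (-3.55), the heparan sulfate proteoglycans Gpc3 (-2.44) and Gpc4 (-2.10) and the angiotensin receptor Agtr2 (-2.01). Higher were the lysosomal enzyme Gla (2.64), the monoamine oxidase Maob (2.49) and Asb11 (2.40), a muscle protein with ankyrin repeats. Of the 69 lower calls, 49 held in each fit that left out 1 array. Without Adult replicate 1 the X-linked calls were 42 higher and 102 lower, and leaving out Adult replicate 2 (15), Aged replicate 1 (14) or Aged replicate 2 (14) lowered the higher count by over 1.5 times. With equal housekeeping means they were 32 higher and 56 lower. The make-up of the arrays by sex was uneven. The Y-linked gene Eif2s3y read 7.04 to 7.94 on the pup arrays and 8.83 on Adult replicate 2, but 3.67 on Adult replicate 1 and 3.56 and 3.98 in Aged. Xist, the RNA of the inactive X chromosome, read 10.97 to 11.13 in pups, 11.57 and 10.14 in Adult and 10.77 and 11.17 in Aged. All pup arrays and Adult replicate 2 thus carried both Xist and Eif2s3y, and whether they held animals of both sexes was not tested. The part of sex in the X-linked result was not tested.

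The sarcomere, the contractile unit of the fiber, had lower levels of embryonic and slow isoforms, while most fast isoforms were not called. Of 9 embryonic and neonatal sarcomere genes, 6 were lower and 0 higher, with a median of -1.98. Myh8, the neonatal myosin heavy chain, fell by 5.87 ± 0.37 (58.6-fold, adjusted p = 2.16e-05), from 13.56 and 13.50 at P3 and 12.99 and 13.43 at P7 to 8.71 and 7.18 in Adult and 7.18 and 6.91 in Aged. Adult replicate 1 held the highest mature value. Myh3, the embryonic myosin, fell by 4.67 ± 0.32, with pups at 9.87 to 10.87 and mature fibers at 5.24 to 6.46. The embryonic light chains Myl4 (-1.82 ± 0.23) and Myl6b (-2.33 ± 0.30), the cardiac actin Actc1 (-1.94 ± 0.34) and the cardiac troponin Tnnt2 (-2.03 ± 0.37) were also lower. All 6 of these calls held in each fit that left out 1 array. Actc1 was lower in Aged than in pups by more than in Adult, at -2.65 and -1.24, and the difference between the mature ages was not tested here.

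The promoter of Myh8 is shown because it belongs to the sarcomere gene with the largest fall. It is the window from 250 bases before to 50 after the RefSeq start on GRCm38.p6, chr11:67276874-67277173, plus strand, with a match to the consensus of MEF2, a muscle transcription factor, in capitals.
Myh8: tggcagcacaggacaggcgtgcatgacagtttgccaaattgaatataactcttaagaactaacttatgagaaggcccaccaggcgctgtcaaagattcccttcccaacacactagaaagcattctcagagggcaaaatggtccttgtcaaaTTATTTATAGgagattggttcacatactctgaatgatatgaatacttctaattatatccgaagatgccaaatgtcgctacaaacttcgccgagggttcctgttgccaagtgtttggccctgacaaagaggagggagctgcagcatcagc
The motif was searched on both strands, and 3.19% of the 32851 promoters in the RefSeq table and 1.84% of those of tested genes held a match. The shares were 2.28% for promoters of genes called higher and 2.01% for those of genes called lower. Among the 132 named genes that have an entry, 11 held one. Of these Myh8, Casq2, Tecrl and Myoz2 were lower and Cntfr was higher. Myh4, Myh1, Ckb, Dmd, Pgam2 and Rpl3l were not called. A match is a match of letters and not a site of binding.

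Most slow sarcomere genes were lower in mature fibers of this fast muscle. Of 12 tested, 8 were lower and 0 higher, with a median of -2.23, and their mean level was 10.75 to 11.32 on the pup arrays, 9.07 and 8.98 in Adult and 9.62 and 10.30 in Aged. Myh7, the slow and cardiac beta myosin heavy chain, fell by 2.80 ± 0.47 (adjusted p = 0.00404). It read 11.22 to 11.95 in pups, 8.19 and 7.75 in Adult and 9.18 and 10.22 in Aged, so both Aged arrays lay between Adult and pups. The slow troponins Tnni1 (-2.46 ± 0.42) and Tnnt1 (-2.45 ± 0.43) were lower in the same order of ages, with Tnni1 at -3.17 in Adult and -1.75 in Aged against pups. Myoz2, which tethers calcineurin at the Z-disc, fell by 2.64 ± 0.29. Without both P3 arrays the calls of Myh7, Tnni1 and Tnnt1 were lost. Tnnc1, Myl2 and Myl3 and the tropomyosin Tpm3 completed the 8, and 6 of the 8 held in each fit that left out 1 array.

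Of 16 fast sarcomere genes 3 were higher and 0 lower, against 6.64% and 9.82% of all genes, with a median of 0.16. Mylk2, the kinase of the fast myosin light chain, rose by 1.29 ± 0.15 (adjusted p = 7.03e-04), from 11.18 to 11.40 on the pup arrays to 12.20 to 12.73 on the mature arrays. Mybpc2, the fast myosin-binding protein, rose by 1.25 ± 0.34 (adjusted p = 0.0351), and its P3 arrays (11.02 and 10.67) lay below its P7 arrays (12.47 and 11.93). Myoz3, a Z-disc protein, rose by 0.91 ± 0.23 (adjusted p = 0.0263). Mybpc2 lost its call without P3 replicate 1, P3 replicate 2, P7 replicate 2, Adult replicate 2 or either Aged array (adjusted p 0.0538 to 0.0986), and Myoz3 without either P3 array, Adult replicate 2 or either Aged array (0.0612 to 0.0872). The list had 1 call without either P3 array, Adult replicate 2 or either Aged array, 2 without P7 replicate 2 and 5 without P7 replicate 1. Myh4, the myosin of the fastest fibers, was at 1.03 ± 0.42 (adjusted p = 0.131). It read 11.43 and 11.68 at P3, 13.52 and 13.18 at P7 and 13.43 to 13.54 on the mature arrays, so that P7 and mature fibers overlapped. In the limma fit with 1 mean per age, where the step from P3 to P7 is not counted as spread, Myh4 passed in Adult (1.05 ± 0.15, adjusted p = 0.0086) and in Aged (1.01 ± 0.15, adjusted p = 0.0077) against the pup mean. Myh1 was at 0.29 ± 0.44 and Myh2 at -0.43 ± 0.43, and neither was called.

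Pairs of isoforms that replace each other in development were set side by side. Of 23 pairs listed both members were tested in 18. The developmental or general form was lower in 10 of the 18 and higher in 0, and the form of mature muscle was higher in 1 and lower in 0. Of all genes 9.82% were lower and 6.64% higher. In 18 of the 18 pairs the difference of the early form lay below that of the mature form. The pairs were listed with earlier results of these data known, so this order is a description. In some pairs neither form was called, such as Pgam1 (-0.33 ± 0.23) and Pgam2 (0.27 ± 0.20). The cardiac calsequestrin Casq2, a calcium store protein, was at -4.17 ± 0.34 and its fast partner Casq1 at -0.10 ± 0.14. The calcium release channel Ryr3 was at -3.20 ± 0.16 and Ryr1, the main channel of skeletal muscle, at 0.43 ± 0.19. The slow calcium pump Atp2a2 was at -1.58 ± 0.36 (adjusted p = 0.0513 when P7 replicate 2 was left out) and the fast pump Atp2a1 at 0.27 ± 0.10. Actc1 (-1.94) stood beside Acta1 (-0.08), and the elongation factor Eef1a1 (-1.34 ± 0.27) beside Eef1a2 (0.48 ± 0.25). The glucose transporter Slc2a4 was the mature form called higher, at 0.71 ± 0.19 (adjusted p = 0.0295), beside Slc2a1 at -0.19 ± 0.33. That call was lost without either P3 array, P7 replicate 1, Adult replicate 2 or either Aged array (adjusted p 0.0547 to 0.0843). Several mature forms were already near the top of the scale in pups, such as Acta1 at 14.14 to 14.22 and Ckm at 13.83 to 13.89.

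**Figure D4:**
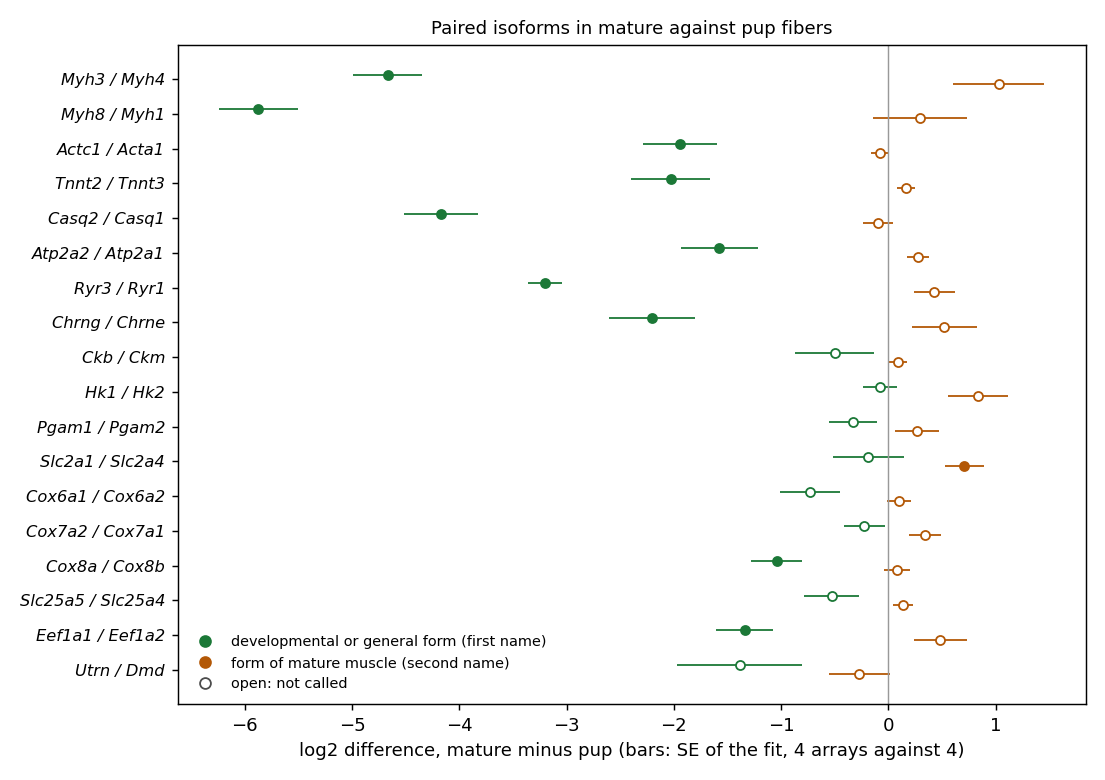
Log2 difference, mature minus pup (horizontal axis), of the developmental or general form (green) and the mature form (orange) in 18 pairs, with the standard error of the fit to 4 arrays against 4. Filled points passed the test: 10 early forms lie left of 0, and Slc2a4 is the mature form that lies right of 0 and passed.

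Several neuromuscular junction genes were lower in mature fibers. Of 20 tested, 10 were lower and 0 higher, against 9.82% and 6.64% of all genes, with a median of -0.99. The mean level was 8.54 to 8.94 on the pup arrays and 7.83 to 7.89 on the mature arrays. The acetylcholine receptor takes up the signal of the nerve. Its subunit Chrna1 fell by 2.09 ± 0.22 (adjusted p = 3.76e-04), from 10.85 and 10.44 at P3 and 10.21 and 10.61 at P7 to 8.20 and 8.14 in Adult and 8.79 and 8.62 in Aged. The fetal subunit Chrng fell by 2.20 ± 0.40 and spread more widely in pups, at 8.44 and 9.45 at P3 and 7.31 and 8.21 at P7, against 5.62 to 6.56 in mature fibers. Chrne, which replaces it in the mature receptor, was at 0.52 ± 0.30 and was not called, with P3 at 7.50 and 8.01 below every other array. Ncam1, an adhesion molecule spread over immature fibers, fell by 2.67 ± 0.21 and Musk, the kinase that gathers receptors under the nerve, by 1.40 ± 0.23. The neuregulin receptor Erbb2, the agrin receptor Lrp4, the acetylcholinesterase Ache, the receptor subunit Chrnb1 and the factors Etv5 and Etv4 were the other lower members, and 7 of the 10 calls held in each fit that left out 1 array. Schwann cell markers (4 tested) averaged 8.30 to 8.63 in pups, 8.38 on Adult replicate 1 and 6.95 to 7.08 on the other mature arrays. Of these Pmp22 alone was called (-2.73 ± 0.65), and that call did not hold in each fit that left out 1 array. Erbb3 (-0.98 ± 0.33), Mbp (-0.51 ± 0.29) and Sox10 (-0.17 ± 0.14) were not called. The part of Schwann cells in the junction list was not tested.

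The promoters of both receptor subunits are given because these fell together and each holds 2 copies of CAGCTG, a form of the E-box that myogenic factors such as MyoD are known to bind. The windows are chr2:73580289-73580588, minus strand, and chr1:87205561-87205860, plus strand, from RefSeq on GRCm38.p6, read 5′ to 3′ with the motif in capitals.
Chrna1: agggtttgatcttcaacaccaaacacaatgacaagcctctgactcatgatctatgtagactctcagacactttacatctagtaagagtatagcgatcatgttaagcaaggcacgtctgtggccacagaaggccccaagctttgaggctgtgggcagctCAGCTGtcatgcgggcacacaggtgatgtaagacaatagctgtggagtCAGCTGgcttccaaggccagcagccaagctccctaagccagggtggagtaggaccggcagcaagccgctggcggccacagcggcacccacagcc
Chrng: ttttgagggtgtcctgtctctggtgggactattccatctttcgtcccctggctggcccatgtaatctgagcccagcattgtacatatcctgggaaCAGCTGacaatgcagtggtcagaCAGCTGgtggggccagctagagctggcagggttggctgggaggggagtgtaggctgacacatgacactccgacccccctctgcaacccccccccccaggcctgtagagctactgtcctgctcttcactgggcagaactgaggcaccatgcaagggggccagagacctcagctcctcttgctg
CAGCTG reads the same on both strands. At least 1 copy stood in 16.3% of all promoters in the table, 16.1% of those of tested genes, 18.0% of those of genes called higher and 18.2% of those of genes called lower. Of the named genes 5 held 2 copies, namely Chrna1, Chrng, Tnnt2, Cox8b and Cntfr, of which Cntfr rose and Cox8b was not called.

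Most genes of cell division that passed the filter were lower. Of 44 listed, 33 passed, 23 were lower and 0 higher, with a median of -1.07, where 9.82% of all genes were lower. A gene above the array median only in pups could pass the filter and then had to be lower, so the count is a description. The mean level was 7.32 to 7.52 on the pup arrays and 6.28 to 6.38 on the mature arrays. Mki67, a nuclear protein of dividing cells, fell by 2.95 ± 0.15 (7.71-fold, adjusted p = 7.33e-06). It read 8.38 and 7.85 at P3, 8.04 and 7.89 at P7, 5.07 and 5.22 in Adult and 5.08 and 5.01 in Aged. Top2a, a topoisomerase, fell by 2.21 ± 0.16, and the cyclins Ccna2 and Ccne1 by 2.41 ± 0.23 and 1.59 ± 0.16. The mature values of Mki67, Top2a and Ccna2 lay below the array medians. Of the 23 calls, 19 held in each fit that left out 1 array. Pcna (0.83) and Rrm1 (0.44) lay above 0 and were not called, and 2 members were called higher without Adult replicate 1. Nuclei inside fibers do not divide, whereas satellite cells, the stem cells of muscle, do. Satellite cell markers had 3 of 14 called lower (Megf10 at -1.69 ± 0.25, Myf5 at -1.43 ± 0.26 and Fgfr4 at -1.02 ± 0.28), which became 11 without Adult replicate 1 and 5 without P7 replicate 1. Pax7, their defining factor, was at -0.63 ± 0.24 and was not called. Fgfr4 lost its call in each fit that left out an array other than Adult replicate 1. The part of satellite cells in the cell cycle list was not tested.

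Genes of fusion and muscle identity moved unevenly. Mymk, the membrane protein that carries out the fusion of precursor cells with fibers, fell by 4.02 ± 0.19 (16.3-fold, adjusted p = 4.47e-06). It read 10.59 and 10.72 at P3, 10.33 and 10.93 at P7, 6.44 and 6.67 in Adult and 6.86 and 6.49 in Aged. Mymx, its partner in fusion, was at -0.38 ± 0.16 and was not called. Myf6, a myogenic factor of mature fibers, rose by 1.15 ± 0.25, with mature arrays at 11.31 to 12.39 above pup arrays at 10.37 to 11.06. Of 17 genes on this list 1 was higher and 3 were lower, where 6.64% of all genes were higher and 9.82% lower. Beside Mymk and Myf5 the lower gene was Eya4 (-0.61 ± 0.18). Its call was lost in 6 of the 8 fits that left out 1 array, all but those without P3 replicate 2 or Adult replicate 1. Without Adult replicate 1 there were 2 higher and 6 lower. Myog (-0.88) and Myod1 (-0.12) were not called, and Myog read 5.67 on Adult replicate 1 against 8.88 to 9.39 on the other mature arrays.

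The receptors of the insulin-like growth factors were lower together with the ligand Igf2. Igf1r, the signalling receptor, fell by 1.05 ± 0.16 (adjusted p = 0.00242), with pups at 10.06 to 10.46 and mature fibers at 9.16 to 9.29. Igf2r, which clears Igf2, fell by 0.87 ± 0.19. The kinase Akt1 was at -0.94 ± 0.21 and the binding protein Igfbp3 at -1.54 ± 0.37, and the 18 genes of this axis had 4 lower and 0 higher calls. Akt1 lost its call without Aged replicate 2 (adjusted p = 0.0515), and Igfbp3 without P3 replicate 2, P7 replicate 2, Adult replicate 2 or either Aged array (0.0523 to 0.0597). The list had 8 lower calls and 1 higher without Adult replicate 1 and 2 lower without Aged replicate 2. Igf1, the ligand of postnatal growth, was at -1.13 ± 0.68 and was not called. It read 6.99 to 8.54 on the pup arrays, 8.96 on Adult replicate 1 and 5.70 to 6.53 on the other mature arrays. The mean of the fibroblast markers was also highest on Adult replicate 1, and the part of fibroblasts in Igf1 was not tested. Of the RNA-binding and chromatin genes of fetal growth 10 of 15 passed the filter, and Sox11 and Igf2bp3 (-2.67 ± 0.17), which binds Igf2 messenger RNA, were lower. Nr6a1 was called higher at 1.20 ± 0.36 with overlapping arrays, and lost that call without any 1 array other than Adult replicate 1. Without Adult replicate 1 this list had 3 higher calls.

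**Figure D5:**
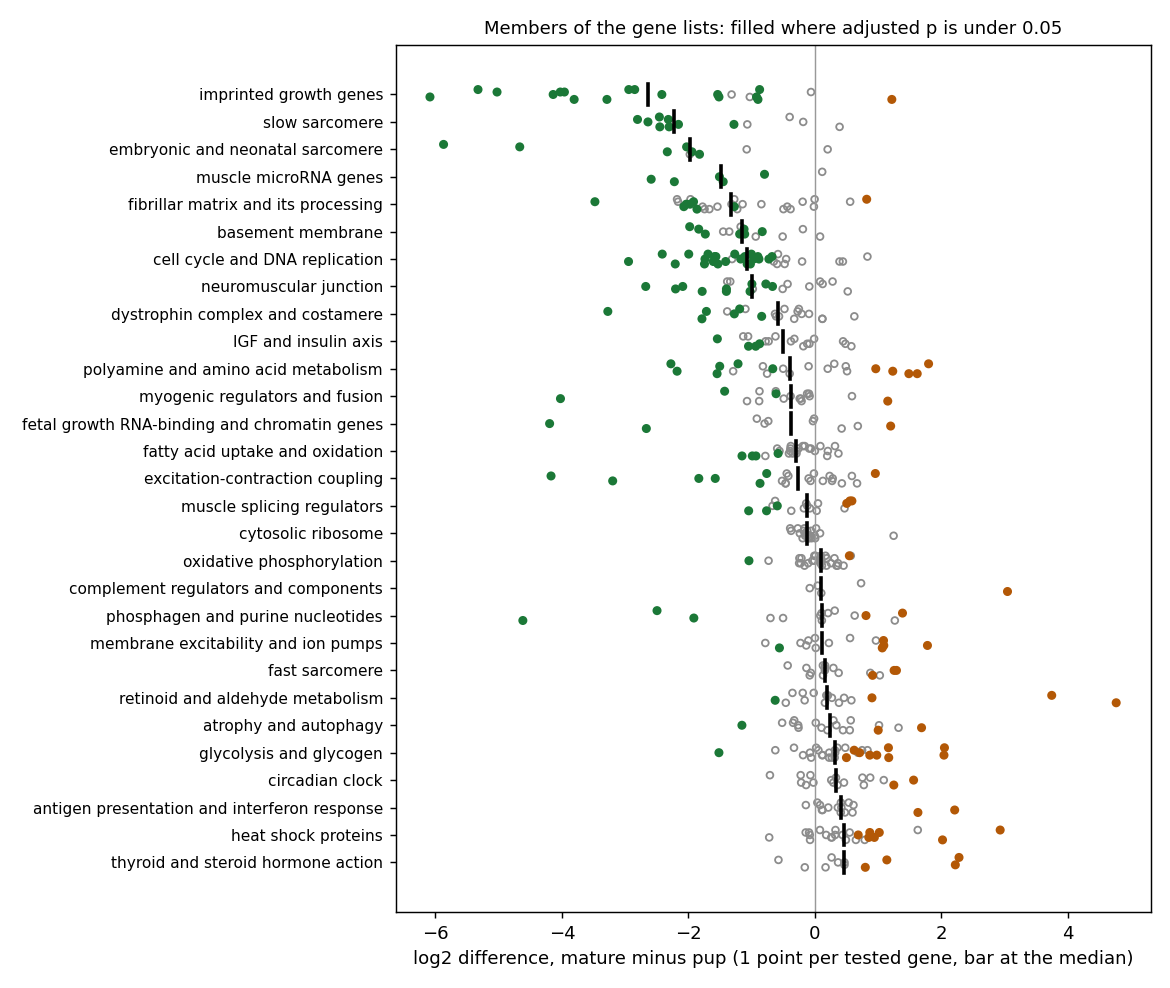
Log2 difference, mature minus pup (horizontal axis), of every tested member of 29 gene lists, with 1 point per gene and a bar at each list's median. Filled points passed the test over all genes: imprinted growth genes have the lowest median, at -2.63, and heat shock proteins and hormone action are among those with a median above 0.

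Calcium handling and membrane excitability had both directions. Of 22 genes of excitation-contraction coupling 6 were lower and 1 higher, with a median of -0.26. Casq2 read 11.28 to 11.98 on the pup arrays and 8.32, 6.74, 7.28 and 8.04 on the mature arrays. Ryr3 read 8.04 to 8.51 in pups and 4.83 to 5.20 in mature fibers, below the array medians. Sln, a small inhibitor of the calcium pump, fell by 1.84 ± 0.37, and the channel subunit Cacnb1 and the calcium entry channel Orai1 were also lower. Stac3, which links the voltage sensor to the release channel, was higher by 0.96 ± 0.26, in a call lost without any 1 array other than P7 replicate 1 or Adult replicate 1. The count of lower calls was 3 without P7 replicate 2, and that of higher calls 3 without Adult replicate 1. Among 14 genes of excitability and ion pumps, 4 potassium channels were higher, namely Kcna7 (1.07 ± 0.17), Kcnq5 (1.78 ± 0.34), Kcnc1 (1.09 ± 0.26) and Kcnj11 (1.09 ± 0.28), and the channel Kcnn3 was lower at -0.56, a call that held without P3 replicate 1 or Adult replicate 1 and in none of the other fits that left out 1 array. Kcna7 and Kcnq5 held in each fit that left out 1 array. Kcnc1 lost its call without P3 replicate 1, P7 replicate 2, Adult replicate 2 or either Aged array, and Kcnj11 also without P3 replicate 2 (adjusted p 0.0508 to 0.0787 for both).

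Some genes of glycogen and sugar use were higher. Of 30 genes of glycolysis and glycogen 9 were higher and 1 lower, with a median of 0.32. Phosphorylase kinase starts glycogen breakdown when calcium rises, and its muscle subunit Phka1 rose by 2.05 ± 0.18 (adjusted p = 1.19e-04). It read 9.81 and 9.73 at P3, 10.05 and 10.37 at P7, 12.05 and 11.85 in Adult and 12.13 and 12.13 in Aged. The subunit Phkb rose by 1.17 ± 0.24 and Phkg1 was higher by 0.98. Pfkfb3, which makes an activator of glycolysis, rose by 2.04 ± 0.27, and Pfkm, the muscle phosphofructokinase, by 0.62 ± 0.15. Pfkm lost its call without P3 replicate 1 or either Aged array (adjusted p 0.0592 to 0.0661). Glycogen synthase Gys1, glycogenin Gyg, the phosphatase subunit Ppp1r3c and Slc2a4 were the other higher members. Fbp2, the muscle enzyme of the reverse path, was lower by 1.52 ± 0.39 on the log2 scale, a call lost without either P3 array, P7 replicate 2 or Aged replicate 2. The later enzymes from Aldoa to Ldha lay near 0, such as Eno3 at 0.12 ± 0.10 and Pgam2 at 0.27 ± 0.20. The count of higher calls was 3 without P3 replicate 1, Aged replicate 1 or Aged replicate 2, 5 without P3 replicate 2, 4 without Adult replicate 2 and 14 without Adult replicate 1.

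Both enzymes of creatine synthesis were lower, and 1 creatine kinase was higher. Gatm, the enzyme of the first step of creatine synthesis, fell by 4.62 ± 0.48 (adjusted p = 3.67e-04), with pup arrays at 12.33 to 12.63. Its mature arrays read 9.52 in Adult replicate 1 and 7.02 to 7.45 elsewhere. Gamt, the enzyme of the second step, fell by 2.50 ± 0.27. Ckmt2, the mitochondrial creatine kinase of muscle, rose by 1.39 ± 0.21, from 10.37 to 11.27 on the pup arrays to 12.05 to 12.46, whereas the cytosolic kinases Ckm (0.09 ± 0.09) and Ckb (-0.50 ± 0.36) and the creatine transporter Slc6a8 (0.21 ± 0.30) were not called. Adssl1, the muscle enzyme of the purine nucleotide cycle, was also higher, and Nnt, a mitochondrial transhydrogenase that makes NADPH, fell by 1.91 ± 0.27. All 5 calls of this list of 14 held in each fit that left out 1 array, and there were 5 higher calls without Adult replicate 1.

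Few oxidative genes were called. Of 30 genes of oxidative phosphorylation 1 was higher (Sdhb, 0.55 ± 0.16) and 1 lower (Cox8a, -1.04 ± 0.24), with a median of 0.09. Sdhb lost its call without any 1 array other than Adult replicate 1 and Cox8a without Aged replicate 2 (adjusted p = 0.0551), and 6 members were called higher without Adult replicate 1. Fatty acid uptake and oxidation had 4 of 25 lower and 0 higher, against 9.82% and 6.64% of all genes. Hadh (-0.99 ± 0.14) and Acadl (-0.93 ± 0.20), enzymes of beta-oxidation, held in each fit that left out 1 array. Cpt1a (-1.15 ± 0.33), which read 8.65 on Adult replicate 1 and 7.32 to 7.41 on the other mature arrays, and Hadha (-0.58 ± 0.17) did not. The list had 2 calls without either P3 array, P7 replicate 2, Adult replicate 2 or Aged replicate 1 and with equal housekeeping means, and without Adult replicate 1 it gained a call upward.

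Of 21 genes of polyamine and amino acid metabolism, 5 were higher and 6 lower. Higher were the aminotransferases Gpt2 (1.49 ± 0.20) and Bcat2 (1.62 ± 0.28), the glutamine synthetase Glul (1.23 ± 0.17), Smox, which oxidises spermine (1.80 ± 0.25), and Got1. Glul read 10.82 to 11.27 in pups and 12.04 to 12.55 in mature fibers. Lower were Aldh18a1, of proline synthesis (-1.55 ± 0.23), Phgdh and Psat1, of serine synthesis (-1.50 and -2.28), Asns, which makes asparagine (-2.18 ± 0.50), the cytosolic Bcat1 (-1.21) and Shmt1. Psat1 read 6.48 and Asns 7.65 on Adult replicate 1, their lowest values, and the other mature arrays lay at 9.08 to 9.99 and 9.07 to 9.97. The calls of Gpt2, Bcat2, Glul, Smox, Aldh18a1, Phgdh and Bcat1 held in each fit that left out 1 array, and the lower calls numbered 3 without P3 replicate 1 or P7 replicate 2.

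Of 11 tested genes of thyroid and steroid hormone action 4 were higher (36.4%, against 6.64% of all genes) and 0 lower. The thyroid hormone receptor Thrb rose by 2.28 ± 0.26 (adjusted p = 5.68e-04), with pups at 4.57 to 5.60, below the array medians, and mature fibers at 6.94 to 7.98. Thrb thus passed the filter only through the mature arrays and then had to be higher, so the count is a description. Thra, the other thyroid receptor (-0.58 ± 0.26), the glucocorticoid receptor Nr3c1 (-0.16 ± 0.22) and the mineralocorticoid receptor Nr3c2 (0.47 ± 0.19) were not called. The estrogen receptor Esr1 rose by 2.22 ± 0.28 and the glucocorticoid-responsive factor Klf15 by 1.14 ± 0.18, with Klf15 at 8.31 and 8.35 in Adult and 7.74 and 7.90 in Aged. Tsc22d3 (0.80 ± 0.19), another gene that glucocorticoids induce, lost its call without P3 replicate 1, Adult replicate 2 or either Aged array (adjusted p 0.0535 to 0.0678). Of 17 clock genes Nr1d1, a repressor of the clock (1.25 ± 0.19), and Bhlhe41 (1.56 ± 0.38) were higher and 0 lower, a share of 11.8% that is near the 6.64% of all genes. Bhlhe41 lost its call without either P3 array, P7 replicate 2, Adult replicate 2 or Aged replicate 1, and 4 members were called without Adult replicate 1. Adult replicate 1 differed from the other mature arrays in some uncalled clock genes. Arntl read 7.15 there against 9.97 to 10.26, and Dbp 11.05 against 7.89 to 8.46, while Clock (9.06 against 8.61 to 9.19) did not differ. The labels give no hour of dissection. Retinoid and aldehyde metabolism had 3 of 16 higher (Aldh1a1, Ces1d and Aox1 at 0.90 ± 0.21) and 1 lower (Rdh10, -0.63 ± 0.17). The shares over all genes were 6.64% higher and 9.82% lower. Ces1d, at 4.05 to 4.76 in pups, likewise passed the filter only through the mature arrays, so this count is also a description. Aox1 lost its call without Aged replicate 1 (adjusted p = 0.0541), Rdh10 without any 1 array other than Adult replicate 1, and 5 members were higher without Adult replicate 1.

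Of 24 heat shock proteins 7 were higher (29.2%, against 6.64% of all genes) and 0 lower, with a median of 0.46, and their mean level was 10.79 to 10.99 on the pup arrays and 11.16 to 11.60 on the mature arrays. Hspa1a, the inducible chaperone, rose by 2.93 ± 0.51 and read 8.11 and 10.15 at P3, 9.69 and 10.99 at P7 and 12.26 to 12.93 in mature fibers. Pup replicates of the same age thus differed by more than 1 log2 unit, whereas mature arrays lay close together. Hspa1l rose by 2.02 ± 0.38 and the small heat shock protein Hspb6 by 0.94 ± 0.17. Dnajb1 was at 1.63 ± 0.56 and was not called, with Adult at 11.30 and 10.53 and Aged at 8.77 and 8.58. The count was 15 without Adult replicate 1 and 4 without P3 replicate 1 or Aged replicate 1. With equal housekeeping means it was 11. Fbxo32, a ubiquitin ligase of muscle atrophy, rose by 1.69 ± 0.36 and Bnip3, of mitochondrial autophagy, by 1.00 ± 0.19, while its fellow ligase Trim63 (1.32 ± 0.46) was not called. These 2 higher calls of 18 genes of atrophy and autophagy (11.1%) are near the share of all genes, and became 6 without Adult replicate 1. Eif4ebp1, a brake on translation, was lower at -1.15 ± 0.33, a call that held without either Adult array and in none of the other fits that left out 1 array. Interferon-induced Ifit1 (1.63 ± 0.30) and Ifit3 (2.21 ± 0.41) were the 2 higher genes of 16 (12.5%), again near the share of all genes, and Ifit3 read 8.32 on Adult replicate 1 and 6.22 to 7.70 on the other mature arrays. In pups both lay below the array medians, at 4.67 to 5.15 and 4.76 to 5.39. They passed the filter only through mature arrays, so this count is a description.

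Some genes that join the fiber to its surroundings were lower, on arrays that differed in their markers of other cells. Of 20 genes of the dystrophin complex and costamere 6 were lower and 0 higher, against 9.82% and 6.64% of all genes. Sntb1, a syntrophin, fell by 3.27 ± 0.27 (adjusted p = 9.26e-05), from 10.52 to 11.35 on the pup arrays to 7.25 to 8.22. Sspn, sarcospan, fell by 1.79 ± 0.25, Itgb1bp2, melusin, by 1.72 ± 0.21 and Tln2, a talin, by 1.27 ± 0.20, and these 4 held in each fit that left out 1 array. Utrn was at -1.39 ± 0.58 and Dmd at -0.27 ± 0.28, and neither was called. Utrn read 9.25 to 9.48 in pups, 10.09 on Adult replicate 1 and 6.96 to 7.61 on the other mature arrays. Of 14 basement membrane genes 7 were lower, which became 12 without Adult replicate 1, 4 without P3 replicate 2 and 2 without P7 replicate 2, Adult replicate 2 or either Aged array. Lamc1, a laminin chain (-1.11 ± 0.21), and Nid2, a nidogen (-1.84 ± 0.35), held throughout. Of 27 genes of the fibrillar matrix 7 were lower and 1, P4ha2, was higher, and the lower count became 19 without Adult replicate 1, 4 without P7 replicate 2 and 3 without Adult replicate 2 or either Aged array. Postn, periostin, fell by 3.48 ± 0.59, Plod2, which modifies collagen, by 2.03 ± 0.39 and Fbn2, the fibrillin of developing tissue, by 1.92 ± 0.17. Fbn2 read 7.00 to 7.63 in pups, and 5.65 on Adult replicate 1 and 5.35 to 5.55 on the other mature arrays, all below the array medians. Col1a1 was at -2.16 ± 1.10 and not called, with P3 at 9.11 and 10.22, P7 at 12.41 and 12.16, Adult at 12.23 and 7.79 and Aged at 7.48 and 7.76. The matrix list averaged 8.45 to 9.48 on the pup arrays, 9.28 on Adult replicate 1 and 7.12 to 7.45 on the other mature arrays, and the fibroblast markers were likewise lower on the other mature arrays than on the pup arrays. With equal housekeeping means each of the 2 matrix lists had 4 lower calls. The part of fibroblasts in them was not tested.

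Cytosolic ribosome genes were not called in either direction. Of 22 tested 0 passed, their median was -0.12 (0.00 with equal housekeeping means) and the lowest adjusted p was that of the muscle form Rpl3l (1.25 ± 0.42, adjusted p = 0.0709), which read 8.62 on P3 replicate 1 and 10.01 to 10.52 on the other pup arrays. Either without Adult replicate 1 or with equal housekeeping means, 1 member was called higher. Splicing regulators of muscle had 3 of 16 higher and 3 lower, where 6.64% of all genes were higher and 9.82% lower. Higher were Mbnl1 (0.59 ± 0.15), Khdrbs3 (0.50 ± 0.13) and Rbfox1, and lower were Rbfox2 (-1.05 ± 0.26), Srsf10 (-0.76 ± 0.17) and Khdrbs1. Of these calls that of Srsf10 held in each fit that left out 1 array. The higher count was 0 without either P3 array, P7 replicate 2 or either Aged array and 1 without Adult replicate 2, and the lower count was 1 without either P3 array or P7 replicate 2.

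The mature ages agreed in sign. All 1980 called genes differed from pups in the same direction in Adult and in Aged, when each was set against the pup mean in a fit with 1 mean per age. Both contrasts use the same pup arrays and the pooled call was made from the same values, so this is a description. In that fit 886 genes (7.37%) were called in Adult and 1243 (10.3%) in Aged. Myh8 was at -5.42 in Adult and -6.32 in Aged, Igf2 at -4.62 and -5.43, Mymk at -4.08 and -3.96, and Aldh1a1 at 4.32 and 5.21. The array weights of limma, which fall as an array's spread grows, were 0.160 for Adult replicate 1, 1.14 for Adult replicate 2 and 2.67 and 3.64 for the Aged arrays.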

How the data were processed

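The 8 arrays, 2 per age, were analysed from the series matrix. The deposited values are linear intensities, between 3.72 and 24410, which the authors made with RMA, per the submitters' processing notes, and its version was not given in the sources used here. Array medians were 64.8 to 71.9, and the number of arrays limits the precision. Their log2 was taken here. Of 34760 probe sets, 21640 had 1 gene symbol, 1321 several and 11799 none in the platform annotation, and 21553 of the symbols matched the RefSeq gene table. Probe sets with 1 symbol above the array median on at least 2 arrays were kept (13176), and of several for a gene the one with the highest mean was used, which left 12029 genes. A gene that passed only through the arrays of 1 pool had to differ, so counts over members that passed are descriptions. Pools of 4 were compared with limma 3.58.1 in R 4.3.3 (eBayes with a trend, 6 residual degrees of freedom), with Benjamini-Hochberg adjustment over all genes. A second limma fit had 1 mean per age. Counts, lists and plots came from Python 3.11.15 (NumPy 2.4.6, pandas 2.3.3, matplotlib 3.10.9). The procedure was tested on simulated data.

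The members, lists and tests were chosen with earlier results of these data known. Genes were named by rule: the 15 largest rises and falls among called genes whose arrays did not overlap (clone, predicted, receptor-cluster, immune-segment and small-RNA names left out), up to 4 called members of each list with the smallest p (or 2 where none was called), both forms of each isoform pair, and Myh8, Igf2, Mymk and Aldh1a1. Other list members, the X-linked genes, the microRNA domain and the promoters were picked after their values had been seen. Nothing beyond the label of biological replicate says that replicates came from separate animals, so p-values measure only the spread between these samples. Replicate numbers in the labels were not taken to pair arrays across ages. Alternatives covered the scaling, filter, probe set rule, offset, model and arrays left out. Promoters and microRNAs are RefSeq sequences on GRCm38.p6.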

Additional observations from a re-analysis of the deposited data

Results flagged for a closer look

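A single array stood far from the other 3 of its pool in 23 of 338 tests of named genes (6.8%), where the gap to the nearest array, as a share of the pool's range, passed Dixon's critical value. Chance flags about 1 in 20. Adult replicate 1 was that array in 13 of the 23. It was the highest mature array for Myh8 (0.85), Tnnt2 (0.864), Cpt1a (0.934), Nid2 (0.875), Col3a1 (0.99), Comp (0.859), Pmp22 (0.839), Mir329 (0.877) and Mir127 (0.874). It was the lowest mature array for Mylk2 (0.908), Rbfox2 (0.96), Hk2 (0.851) and Eef1a2 (0.833). Adult replicate 2 was the highest for Smox (0.845) and Cox8b (0.871). Among pups, P7 replicate 2 was the highest for Ccne1 (0.897), Hsph1 (0.878), Vwf (0.896) and Pgam1 (0.842), P3 replicate 1 the highest for Musk (0.9) and the lowest for Eef1a2 (0.855), and P3 replicate 2 the lowest for Casq2 (0.831) and the highest for Cox6a1 (0.924).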

How the results depend on the processing

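Against 1980 calls (799 higher, 1181 lower), leaving out 1 array gave 1116 (without Aged replicate 2) to 3745 (without Adult replicate 1) calls, 434 to 1690 higher and 682 to 2055 lower. Array weights gave 4200 calls (1934 higher, 2266 lower). Leaving out both arrays of an age gave 2647 without Adult (1173 higher, 1474 lower), 685 without P3 (207 higher, 478 lower), 1042 without P7 (481 higher, 561 lower) and 535 without Aged (187 higher, 348 lower). Equal housekeeping means gave 1273 higher. Adult against pups had 886 calls in the fit with 1 mean per age, 319 to 2853 when 1 array was left out, 144 with array weights, 241 without P3, 412 without P7 and 422 without Aged. Aged against pups had 1243, 146 to 3050 when 1 array was left out, 3986 with array weights, 374 without P3, 601 without P7 and 3053 without Adult. The cause of these changes was not tested. Deviations of samples with the same number correlated at r = 0.385 between P3 and P7 and -0.459 between Adult and Aged. Over the other pairs of ages r was -0.008 to 0.097. P3 and P7 arrays of the same number thus deviated partly together, and whether the numbers pair the arrays is not known. With the replicate block there were 1943 calls (801 higher, 1142 lower), and 749 for Adult and 1166 for Aged. Of 132 named calls, 97 held in each of the 8 fits that left out 1 array and 63 under all 24 alternatives, while 4 were lost with the replicate block, 8 with equal housekeeping means, 57 without both P3 arrays and 58 without both Aged arrays. The difference of Ppia turned from -0.60 to 0.001 when the first probe set of each gene was used. No depth is recorded for arrays, and genes near the array median of 6.02 to 6.17 have the least signal over background.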
